A study of Mus musculus with 16 samples.

Results

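Immediate early genes are switched on within minutes of a stimulus without new protein synthesis, and several of them encode transcription factors that carry the signal on to later genes. A set of 10 such genes was followed here in chromatin of adult mouse cardiomyocytes: Fos, Fosb, Jun, Junb and Jund, whose products pair to form the AP-1 transcription factor, Atf3, a stress-induced relative of the same leucine-zipper class, and the zinc-finger factor genes Egr1 and Klf6, the orphan nuclear receptor gene Nr4a1 and Ier2, which encodes a nuclear protein of the same early response. The genes were chosen by symbol, and every peak that the deposited annotation assigned to one of the 10 symbols was taken, out of 10927 genes with a peak in any library. The mark measured was H3K27Ac, acetylation of lysine 27 of histone H3, which marks active promoters and enhancers. In heart muscle these genes are known to respond to stretch, pressure load and catecholamines, and also to the handling of tissue and cells.

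Cardiomyocytes came from the hearts of 3-month-old mice with desmin (Des+/+) or without it (Des-/-), desmin being the intermediate filament protein of muscle. The mice were either unstressed (basal) or had done swimming exercise (swim), and the study asked how desmin loss alters active chromatin in either state. The 4 groups were Des+/+ basal, Des+/+ swim, Des-/- basal and Des-/- swim. All 4 groups shared the isolation, an enzymatic perfusion of the heart with trypsin and collagenase D, with cells harvested directly afterwards, and cells without that isolation were not analysed here. The chromatin of each library was pooled from several mice according to the study's methods. Desmin was missing from the whole animal rather than from cardiomyocytes alone. The labels did not name the strain. The study's methods give the strain background and describe both mouse lines as carrying a GFP transgene under a cardiac myosin promoter. Each group had 1 H3K27Ac library, so no comparison below has a replicate check, and all intervals are 95% intervals for counting error alone. Fewer cells carrying the mark and less mark per cell cannot be told apart in such pooled chromatin.

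The H3K27Ac lists held 15757, 11157, 16638 and 10407 peaks in Des+/+ basal, Des+/+ swim, Des-/- basal and Des-/- swim, the order used for every series of 4 values below. Heights are numbers of overlapping reads, the lowest height kept was 15 reads, and the methods gave a single approximate read number for all samples rather than the total of each library. Des-/- swim stood apart from the other libraries in its input, the chromatin sequenced without precipitation, with a mean input height of 5.48 reads under its peaks against 2.80 to 3.06 in the others. It also stood apart in the cardiomyocyte markers, of which 7 of 10 had a promoter peak with a summed height of 147 reads, against 10 of 10 and 283 to 314 reads in the others. Actn2, Myl2 and Actc1 lacked one there. Endothelial markers had promoter peaks for 8, 6, 8 and 6 of 8 genes, with summed heights of 303, 158, 238 and 188 reads. Fibroblast markers had them for 0 to 2 of 8 genes, leukocyte markers for 0 or 1 of 8 and mural cell markers for 0 of 6. Col1a1, Col3a1, Ptprc, Lyz2 and Myh11 had no promoter peak in any library. The part of endothelial chromatin in the heights below was not tested. The labels gave a different antibody catalogue number for each H3K27Ac library while the methods gave a single one.

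The promoters of the genes whose heights moved most between libraries, and of 2 further genes that carry the same short element, are shown so that the peaks can be read against their sequence. The RefSeq promoter table of GRCm38.p6, the build of the peak lists, matched 8 of the 10 symbols, Egr1 and Ier2 being the exceptions. Each sequence is the 250 bases just upstream of the transcription start, written 5′ to 3′ along the gene, with capitals marking TGACG on either strand (the core of the cAMP response element), TATAAA (the TATA box) and GCGNGGGCG (the EGR site) where found.
Fos, chr12:85473640-85473889, plus strand: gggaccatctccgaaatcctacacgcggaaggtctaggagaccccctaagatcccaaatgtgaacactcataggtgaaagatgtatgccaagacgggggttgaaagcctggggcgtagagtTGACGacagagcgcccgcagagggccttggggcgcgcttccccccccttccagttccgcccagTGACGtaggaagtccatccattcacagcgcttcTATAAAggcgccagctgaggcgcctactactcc
Fosb, chr7:19310046-19310295, minus strand: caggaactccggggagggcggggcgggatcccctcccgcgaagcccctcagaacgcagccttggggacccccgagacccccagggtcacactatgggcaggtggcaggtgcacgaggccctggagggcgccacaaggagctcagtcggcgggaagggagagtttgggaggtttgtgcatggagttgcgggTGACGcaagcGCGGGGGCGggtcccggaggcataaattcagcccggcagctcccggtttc
Atf3, chr1:191183334-191183583, minus strand: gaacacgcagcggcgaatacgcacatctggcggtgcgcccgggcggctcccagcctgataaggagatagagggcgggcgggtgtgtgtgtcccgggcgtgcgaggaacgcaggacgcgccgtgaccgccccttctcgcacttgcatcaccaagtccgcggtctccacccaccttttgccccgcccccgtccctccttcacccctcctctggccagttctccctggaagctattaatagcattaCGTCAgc
Nr4a1, chr15:101266596-101266845, plus strand: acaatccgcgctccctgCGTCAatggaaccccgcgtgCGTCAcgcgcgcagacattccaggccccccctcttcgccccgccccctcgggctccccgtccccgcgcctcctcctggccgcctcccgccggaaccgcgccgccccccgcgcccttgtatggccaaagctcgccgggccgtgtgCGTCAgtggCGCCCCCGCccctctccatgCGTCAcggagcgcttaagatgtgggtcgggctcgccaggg

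Over the window from 250 bases before to 50 bases after the start, TGACG on either strand was present in 5 of the 8 promoters (Fos, Fosb, Junb, Atf3 and Nr4a1) and in 20.8% of all 32851 promoters of the table. Fos held TGACG at 129 and 66 bases upstream, Fosb at 60 and Junb at 106. Atf3 had its reverse complement 7 bases before the start, and Nr4a1 had 4 copies between 233 and 36 bases upstream. TATAAA was found in Fos, 33 bases upstream, and at the start of Junb, and was present in 13.6% of all promoters. GCGNGGGCG was found in Fosb and Nr4a1, against 5.55% of all promoters. The full cAMP response element TGACGTCA, which contains TGACG, the AP-1 site TGANTCA and the CArG box bound by serum response factor matched in 0 of the 8 windows, where they were present in 1.79%, 7.81% and 1.63% of all promoters. Only exact matches were counted, and sequence more than 250 bases upstream was not searched, nor were the promoters of Egr1 and Ier2. A count of 0 therefore does not show that these genes lack such sites. Binding of the named factors was not measured.

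All 10 genes had an H3K27Ac peak within 3 kb of a transcription start (a promoter peak) in all 4 libraries, whereas 52.9% of the genes with a promoter peak in any library had one in all 4. They carried 36, 38, 36 and 36 peaks in the 4 lists, of which 19, 23, 16 and 22 were promoter peaks. The mark at these genes was high as well as present. The median height of their highest promoter peaks was 89, 53, 91 and 63 reads, against 28, 23, 30 and 27 reads over all genes with a promoter peak. Their median percentile among all such genes was 97.2, 93.4, 96.6 and 94.5, and 8, 7, 8 and 8 of the 10 lay in the top 10%.

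**Figure D1:**
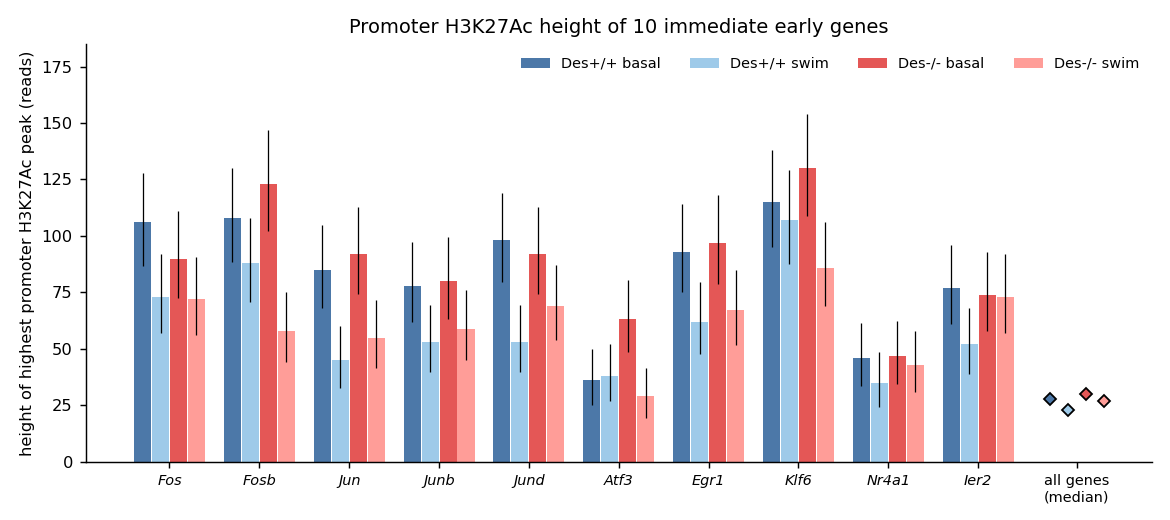
Height in reads (y axis) of the highest promoter H3K27Ac peak of each of the 10 genes in each of the 4 libraries, with exact 95% Poisson intervals as vertical lines, and the median over all genes with a promoter peak as diamonds. Bars of 8 genes stand well above the diamonds of 23 to 30 reads in every library, while Atf3 and Nr4a1 are lower.

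Fos, the founding AP-1 member, had 1 broad promoter peak in every library. It spanned chr12:85471572-85475326 in Des+/+ basal, 3755 bp across the start. Its heights were 106, 73, 90 and 72 reads, at percentiles 98.7, 98.2, 96.4 and 96.9. Both swim libraries were lower than both basal ones, and its ratio of swim to basal was 0.689 (0.504 to 0.937) in Des+/+ and 0.800 (0.579 to 1.10) in Des-/-.

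Fosb, which encodes a partner of Jun proteins able to accumulate after repeated stimulation, had heights of 108, 88, 123 and 58 reads. Des-/- basal was the highest library and Des-/- swim the lowest. The peak of Des-/- basal ran unbroken from chr7:19307783 to 19310876, while in the other 3 libraries a gap of 42 to 104 bp divided the promoter into an upstream peak with the values above and a lower peak of 57, 34 and 31 reads over the gene. The input under the upstream peak was 10 reads in Des-/- swim and 4 to 7 in the others.

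The Jun family members had similar heights in basal cells and lower ones after swimming, as most genes did. Jun, the principal AP-1 partner of Fos, had heights of 85, 45, 92 and 55 reads. Junb, which can oppose Jun at some targets, had 78, 53, 80 and 59 reads. Jund, the member that is less dependent on induction, had 98, 53, 92 and 69 reads. For each of these 3 genes both swim libraries lay below both basal libraries, as they did for 9 of the 10 genes (Atf3 being the exception) and for 77% of the 5260 genes with a promoter peak in all 4 libraries. In Jun the ratio of swim to basal was 0.529 (0.360 to 0.769) in Des+/+ and 0.598 (0.420 to 0.844) in Des-/-. Divided by the median ratio of all genes, these were 0.746 (0.508 to 1.08) and 0.815 (0.573 to 1.15).

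Atf3 and Nr4a1 had the lowest promoter heights among the 10. The highest promoter peak of Atf3 had 36, 38, 63 and 29 reads, at percentiles 65.1, 82.5, 88.3 and 54.6, so that Des-/- basal stood above the other 3 libraries. Its peak in Des-/- basal covered chr1:191182111-191183424, downstream of the sequence printed above and overlapping its 3′ end. The peak over and downstream of the start had 36, 38, 63 and 28 reads and the peak upstream of it had 35, 25, 41 and 29 reads, so that the highest value came from the upstream peak in Des-/- swim and from the downstream peak in the other libraries. Nr4a1, a receptor gene induced by a wide range of stimuli, had 46, 35, 47 and 43 reads near its start, and a further region upstream (chr15:101253393-101255268), counted as a promoter because the annotation places another start there, had 32, 29, 46 and 32 reads. The 4 Nr4a1 values near its start lay within each other's counting intervals.

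Klf6, which encodes a zinc-finger factor involved in tissue remodelling, had the highest value of the 10 in all 4 libraries, with 115, 107, 130 and 86 reads. This peak lay upstream of the start, at chr13:5860301-5861314 in Des+/+ basal, and 2 more peaks over the gene reached 62, 51, 72 and 60 reads and 25, 19, 32 and 23 reads. Egr1, whose product activates many later genes, had 93, 62, 97 and 67 reads, and its peak in Des+/+ basal was 3548 bp wide, on chromosome 18 from 34859083 to 34862630. Ier2 had 77, 52, 74 and 73 reads, so that it was lower in Des+/+ swim than in the other 3 libraries. In each library Atf3 or Nr4a1 was lowest, and the genes between them and Klf6 had overlapping counting intervals with their neighbours in the order.

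Acetylated promoter chromatin was wide at these genes. Summed over promoter peaks, it covered a median of 4046, 3938, 4341 and 3734.5 bp per gene, against 1174, 979, 1219 and 1027 bp over all genes with a promoter peak. Junb, with 5807, 6511, 6546 and 5924 bp, was the widest in all libraries but Des+/+ basal, where Klf6 covered 6362 bp. Atf3 was among the narrower ones, with 2944, 2669, 3951 and 3120 bp.

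The shape of the mark at the start differed between libraries. Jun and Junb each had 1 unbroken peak over the start in both basal libraries, and in both swim libraries this was split in 2 by a gap at or beside the start. The gap of Jun was 133 bp wide in Des+/+ after swimming and 268 bp in Des-/-, and that of Junb was 14 and 37 bp. Nr4a1 was also unbroken at its start in basal, with gaps of 174 and 173 bp in the swim libraries. Klf6 and Atf3 were split in all 4 libraries, by 108 to 220 bp and by 66 to 243 bp. Ier2 went the other way in Des+/+, with a 59 bp gap at its start in basal and an unbroken peak over it in swim, while in Des-/- it was unbroken in basal and had a 55 bp gap in swim. Jund was divided at or beside an annotated start in both Des-/- libraries, by 140 bp in basal and 102 bp in swim. In both Des+/+ libraries Jund was unbroken there. Egr1 was divided in Des-/- swim alone, by 219 bp. The 135 bp gap of Atf3 in Des+/+ basal lay wholly inside the upstream sequence printed above.

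Counted over the 10 genes, 6, 8, 4 and 9 had more than 1 promoter peak, against 22.9%, 20.8%, 22.4% and 19.3% of all genes with a promoter peak. Among the genes at least as high as the lowest member, 27.8%, 27.6%, 26.8% and 24.6% had more than 1. In Jun, Junb and Nr4a1 the heights on both sides of the gap in the swim libraries were lower than that of the single basal peak. Whether the gaps follow from a peak caller dividing a lower signal or from the chromatin itself was not tested, and these gaps were examined after their values had been seen.

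**Figure D2:**
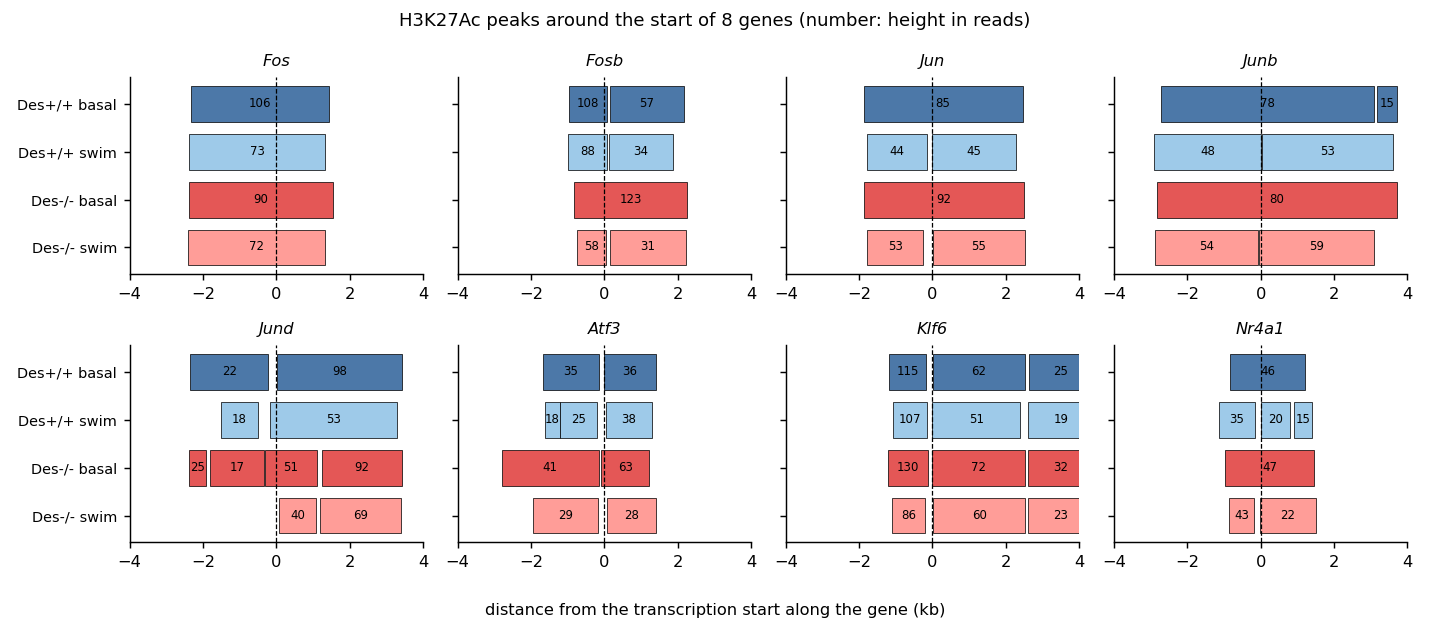
H3K27Ac peaks within 4 kb of the RefSeq transcription start (dashed line) of 8 genes, drawn to scale along the direction of transcription (x axis, kb), with 1 row per library and the height in reads written on each peak. Jun, Junb and Nr4a1 have 1 block over the start in both basal rows and separate blocks in both swim rows, while Fos has 1 block in all 4.

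After swimming, heights fell at most genes in the lists, so each gene's ratio was read relative to the median ratio of all genes with a promoter peak in both libraries. That median was 0.709 over 6227 genes in Des+/+ and 0.733 over 6183 genes in Des-/-. Divided by it, the members' ratios had a median of 0.964 in Des+/+ and of 0.974 in Des-/-, where 1 means a change like that of the median gene. The 10 genes as a group therefore changed about as much as the median gene, with 4 above and 6 below it in Des+/+ and 5 on either side in Des-/-. Summed over the 10 genes, 842 reads became 606 in Des+/+, a ratio of 0.720 (0.647 to 0.800), and 888 became 611 in Des-/-, a ratio of 0.688 (0.620 to 0.764). Genes with a basal height at least that of the lowest member had a median relative ratio of 0.928 in Des+/+ and 0.920 in Des-/-.

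In Des+/+, 0 of the 10 genes lay at least 1.5-fold above the median gene after swimming, where 3.89% of all genes did, and 0 lay at least 1.5-fold below, where 3.02% did. Atf3 came closest, at 1.49 (0.918 to 2.42), followed by Klf6 at 1.31 (0.999 to 1.72). Atf3 passed the threshold at 1.63 with promoter peaks summed, and at 1.61 both with width times height and with input subtracted. It was at 1.79 with height plus 1 over input plus 1, and at 1.59 with a reference of genes with at least 30 reads. In these alternatives 5.97% to 18.2% of all genes lay as far above. Jun at 0.746 (0.508 to 1.08) and Jund at 0.762 (0.535 to 1.08) were the lowest. The Jun value depended on how its split promoter was counted, at 1.5 with the heights of all promoter peaks summed and at 0.505 with width times height. The median gene lay inside the counting interval of all 10, and outside that of only 1.83% of all genes.

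In Des-/-, 0 of the 10 lay at least 1.5-fold above the median gene, where 4.21% of all genes did, and 2 lay at least 1.5-fold below, where 2.77% did. These were Fosb, at 0.643 (0.462 to 0.886), and Atf3, at 0.628 (0.390 to 0.989). Both intervals excluded the median gene, as those of 2.31% of all genes did. Ier2 was highest, at 1.35 (0.960 to 1.88), and Nr4a1 followed at 1.25 (0.805 to 1.93). When the heights of all promoter peaks of a gene were summed, the Fosb ratio became 1.01, since its single basal peak was then set against 2 swim peaks. Both calls rest on the Des-/- swim library, with its higher input and lower cardiomyocyte marker heights, whose part in them was not tested. The input there was 10 reads under the Fosb peak and 4 reads under the Atf3 peak. The Atf3 call rests as well on the 63 reads of Des-/- basal, its highest library. Atf3 was at 0.607 when the downstream peak was compared with its overlapping peak, at 0.673 with the input height subtracted, at 0.766 with peaks summed, at 0.819 with width times height and at 0.924 with height plus 1 over input plus 1, of which the last 4 are short of the threshold. Fosb was at 0.657 with the input subtracted and at 0.816 with its highest peak at any distance.

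**Figure D3:**
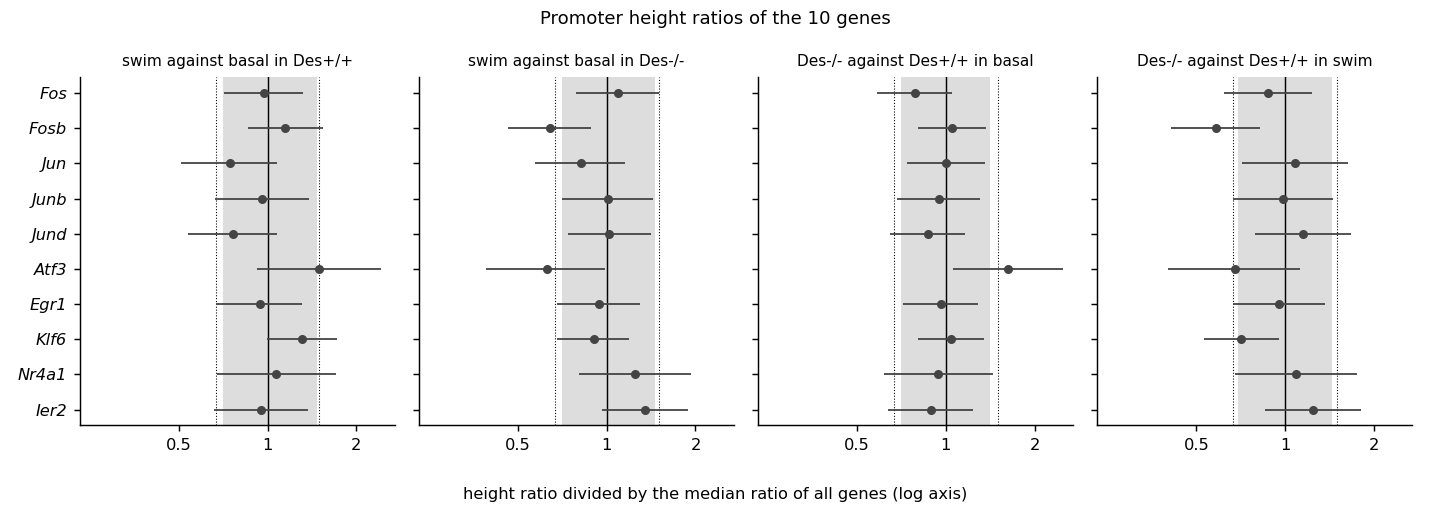
Height ratio of each of the 10 genes divided by the median ratio of all genes (x axis, logarithmic) in the 4 comparisons, with 95% counting intervals. The solid line is the median gene, the dotted lines are 1.5-fold on either side, and grey spans the 5th to the 95th percentile of all genes. Fosb and Atf3 lie beyond the lower dotted line in the swim comparison of Des-/-, Atf3 beyond the upper one in the basal comparison of genotypes, and Fosb beyond the lower one in swim.

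In basal cells without desmin the group lay near the median gene. The median ratio of Des-/- to Des+/+ was 1.08 over 8061 genes, and the members' median relative to it was 0.955. Atf3 alone of the 10 lay at least 1.5-fold above, at 1.62 (1.06 to 2.50) from 63 against 36 reads, where 3.01% of all genes did. None of the 10 lay as far below, where 2.95% did, and Fos was lowest at 0.784 (0.585 to 1.05). With all promoter peaks summed, 0 genes lay 1.5-fold above, because the upstream Atf3 peak differed less, at 41 against 35 reads.

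After swimming, the median ratio of Des-/- to Des+/+ was 1.13 over 5410 genes, and the members' median relative to it was 0.970. None of the 10 lay 1.5-fold above, where 3.4% of all genes did, and 1 lay 1.5-fold below, where 3.92% did. That gene was Fosb, at 0.583 (0.411 to 0.821), from 58 against 88 reads. Klf6, at 0.711 (0.529 to 0.953), also had an interval that excluded the median gene, where 1.77% of all genes had one. Atf3 was at 0.675 (0.402 to 1.12). Ier2 was highest, at 1.24 (0.858 to 1.81). Fosb stayed below the median gene in all alternatives, between 0.466 and 0.751. The 4 comparisons use the same 4 libraries, each in 2 of them, so a low Des-/- swim value enters 2 of the results for Fosb and Atf3. Likewise, the 63 reads of Atf3 in Des-/- basal enter both of its calls. These were 1.62 for genotype in basal and 0.628 for swim in Des-/-, and they are not independent.

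The swim ratio was then compared between genotypes directly, as the Des-/- ratio over the Des+/+ ratio, relative to its median of 1.03 over the 5260 genes with a promoter peak in all 4 libraries. Atf3 was at 0.421 (0.224 to 0.794) and Fosb at 0.559 (0.367 to 0.851), and Klf6 followed at 0.687 (0.470 to 1.0). The other 7 genes lay between 1.0 and 1.41, Ier2 being the highest. Of the 10, 2 were at least 1.5-fold from the median in either direction, where 15.7% of all genes were. An interval that excluded the median was found for 2 of the 10 and for 2.28% of all genes, whose intervals are wider where heights are low. The highest Atf3 peak had 36 and 38 reads in Des+/+, and 63 and 29 in Des-/-, where the 29 came from the upstream peak and the downstream peak had 28. Fosb went from 108 to 88 and from 123 to 58. This comparison was added after the values had been seen and was not repeated under the alternatives. With all promoter peaks summed, the relative swim ratio of Fosb was 1.06 in Des+/+ and 1.01 in Des-/-. That of Atf3 was 1.63 in Des+/+ and 0.766 in Des-/-.

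Peaks further than 3 kb from a start, where enhancers lie, were merged across the libraries into distal regions. The 10 genes had 17 distal regions, and 10 of them, or 58.8%, had a peak in all 4 libraries, against 18.1% of all 6183 distal regions. These 10 regions belonged to Fos, Fosb, Ier2, Jun and Nr4a1. Junb, Jund, Atf3, Egr1 and Klf6 had no distal region in all 4. Assignment was to the nearest annotated start, from which distances are given, so a region may act on another gene. The strongest regions of Fos and Fosb are shown as 300 bases on the plus strand of GRCm38, centred on the summit in Des+/+ basal. None of the 6 motifs searched was found in either, so they hold no capitals.
Fos, 17.4 kb upstream, chr12:85455623-85455922: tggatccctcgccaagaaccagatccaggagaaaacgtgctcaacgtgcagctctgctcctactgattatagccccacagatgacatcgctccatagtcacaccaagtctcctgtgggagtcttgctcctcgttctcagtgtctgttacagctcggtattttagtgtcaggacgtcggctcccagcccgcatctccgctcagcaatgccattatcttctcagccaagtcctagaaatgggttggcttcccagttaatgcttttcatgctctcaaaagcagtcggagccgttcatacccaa
Fosb, 15.7 kb upstream, chr7:19326728-19327027: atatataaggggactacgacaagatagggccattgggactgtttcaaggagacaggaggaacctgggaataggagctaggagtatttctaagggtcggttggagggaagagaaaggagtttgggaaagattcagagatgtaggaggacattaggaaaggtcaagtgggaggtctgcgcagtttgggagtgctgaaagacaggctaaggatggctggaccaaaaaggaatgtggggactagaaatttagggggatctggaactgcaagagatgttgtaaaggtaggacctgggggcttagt

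In windows of the same length over the 1119 distal regions with a peak in all libraries, TGACG was present in 16.2%, TATAAA in 9.83%, TGANTCA in 9.47%, GCGNGGGCG in 2.06%, the CArG box in 1.07% and TGACGTCA in 0.715%. Among the 10 regions of the immediate early genes, TGACG was found in 1 (Nr4a1), TATAAA in 1 (Fosb), GCGNGGGCG in 1 (Jun) and the other motifs in 0.

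The Fos region 17.4 kb upstream, in intergenic sequence, had heights of 67, 36, 53 and 53 reads, so that Des+/+ swim was the low library. A Fos region 10.3 kb downstream had 47, 26, 40 and 32 reads. The Fosb region 15.7 kb upstream, which the annotation placed in an intron, had 109, 59, 92 and 74 reads and was higher than the Fosb promoter peak in Des+/+ basal, by 1 read, and in Des-/- swim. Fosb regions 9.13 kb upstream and 8.25 kb downstream had 51, 31, 53 and 46 reads and 51, 26, 41 and 26 reads. In all 5 of these regions Des+/+ swim lay below Des+/+ basal.

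The strongest of the 3 distal regions of Nr4a1 had 56, 33, 64 and 44 reads. It was 6.11 kb upstream of the additional start that the annotation places before the one printed above. It was higher than the promoter peak in Des+/+ basal, in Des-/- basal and, by 1 read, in Des-/- swim. A region 11.5 kb upstream of that additional start had 26, 21, 27 and 15 reads. The region 4.42 kb upstream of the printed start had 32, 28, 35 and 23 reads. Ier2 had a region 5.28 kb downstream with 44, 26, 53 and 30 reads, low in both swim libraries. The Jun region lay 108 kb upstream, in an exon and intron of the annotation, with 42, 34, 42 and 32 reads.

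Relative to the median of all distal regions with a peak in both libraries (0.833 over 1858 regions in Des+/+ and 0.821 over 1567 in Des-/-), the swim ratios of the 10 regions had a median of 0.708 in Des+/+ and 0.883 in Des-/-. In Des+/+, 9 of the 10 lay below the median region, and 4 lay at least 1.5-fold below (both Fos regions and the Fosb regions 8.25 kb downstream and 15.7 kb upstream), where 6.57% of all distal regions did. In Des-/-, 8 of the 10 lay below it and 0 lay 1.5-fold below, where 4.02% did. The reference holds every region with a peak in the 2 libraries compared, and counted in that way each genotype has 11 regions, the added ones being a Fos region 36.0 kb upstream at 1.28 in Des+/+ and a Fos region 58.0 kb downstream at 1.22 in Des-/-. The medians over 11 regions were 0.709 in Des+/+ and 0.928 in Des-/-. The members' regions were higher than most. Among distal regions with at least the basal height of the lowest of the 10, the median relative ratio was 0.831 in Des+/+ with 16.3% lying 1.5-fold below, and 0.863 in Des-/- with 10.1%.

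The Fos region 17.4 kb upstream was at 0.645 (0.418 to 0.981) in Des+/+ and 1.22 (0.816 to 1.82) in Des-/-. The ratio between these values was 1.89 (1.08 to 3.29), the 1 of the 10 regions whose interval excluded 1, where 1.97% of all distal regions with 4 values had such an interval. For the Fosb region 15.7 kb upstream it was 1.51 (0.971 to 2.34), from 0.650 (0.465 to 0.900) in Des+/+ and 0.979 (0.711 to 1.34) in Des-/-. It was above 1 for 6 regions, which include all 5 of Fos and Fosb, and below 1 for 4. Regions of a gene share that gene and are not replicates. The Fosb promoter, at 0.559, lay on the other side of 1 from the 3 Fosb distal regions, at 1.26 to 1.51. The promoter value was divided by its own median over genes. The distal values were not divided by theirs, which was 1.03 over 1119 regions.

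**Figure D4:**
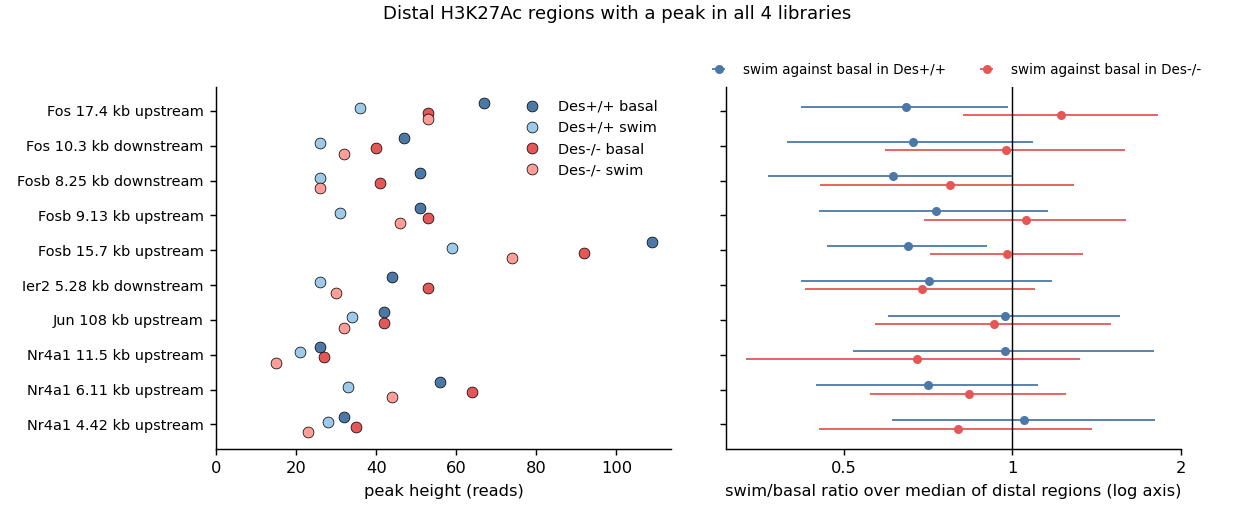
Left, height in reads of the 10 distal regions of immediate early genes that had a peak in all 4 libraries, with 1 coloured point per library. Right, their swim to basal ratios divided by the median over all distal regions (logarithmic axis) in Des+/+ (blue) and Des-/- (red) with 95% counting intervals. The 5 Fos and Fosb regions lie further left in Des+/+, at 0.612 to 0.729, than in Des-/-, at 0.772 to 1.22.

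The 7 distal regions not seen in all 4 libraries were low, with heights from 15 to 23 reads against the minimum of 15. They included an Egr1 region 25.8 kb downstream, with 17 and 23 reads in the basal libraries of Des+/+ and Des-/-, and a Klf6 region 4.59 kb downstream, with 18 and 23 reads. Neither had a peak in a swim library. At such heights a missing peak means only that fewer than 15 reads overlapped there or that the region missed the authors' threshold.

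Genes that work with the 10 were described from 4 lists. Over the 4 comparisons, 3.01% to 4.21% of all genes lay at least 1.5-fold above the median gene, and 2.77% to 3.92% below. Of 13 AP-1 and ATF relatives, 10 had a promoter peak in every library and 0 lay 1.5-fold from the median gene in either swim comparison, with median relative ratios of 1.06 in Des+/+ and 1.10 in Des-/-. Fosl2, a Fos relative, had 77, 69, 108 and 81 reads, and Atf4, the factor of the integrated stress response, had 136, 109, 126 and 106 reads, above all of the 10 immediate early genes in Des+/+ basal and in both swim libraries. Fosl1, Batf and Batf3 were the 3 without a promoter peak in every library.

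Among 15 other immediate early transcription factor genes, 13, 12, 13 and 12 had a promoter peak, and Myc, the growth regulator, was the 1 gene past 1.5-fold in a swim comparison, at 1.5 times the median gene in Des+/+. Its heights there were 15 and 16 reads, at the minimum of the list. The feedback and signalling list has 22 symbols, which include older and newer names of the same gene. In each comparison 17 or 18 of them had a promoter peak in both libraries. Of these, 0 lay past 1.5-fold in any of the 4 comparisons, the closest being at 0.667 after swimming in Des+/+. This list includes Dusp1, a phosphatase that ends MAP kinase signalling, with 87, 68, 107 and 65 reads, and Zfp36, which speeds the decay of early messenger RNAs, with 124, 85, 136 and 87 reads.

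Of 19 symbols of upstream factors, 12 to 15 had a promoter peak in both libraries of a comparison. Elk3, an ETS partner of serum response factor, lay more than 1.5-fold below the median gene after swimming in Des+/+, at 0.572. Its heights were 37, 15, 36 and 26 reads. Elk3 was thereby at 1.53 times the median gene in Des-/- against Des+/+ after swimming. Both values rest on the 15 reads of Des+/+ swim, the minimum of the list. Creb1, which binds the cAMP response element, was at 1.63 in Des-/- against Des+/+ in basal cells, with 46 and 81 reads, and at 1.31 after swimming, with 29 and 43 reads.

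Genes other than the members were also ranked by their profile. The 5 genes whose heights over the 4 libraries were nearest to the members' median profile, by root mean square difference of log2 heights after subtraction of the library median, were Gm44502, Ddx6, Gng5, Med25 and Cltc, at 0.032 to 0.049. Ddx6, an RNA helicase gene, had 91, 55, 93 and 61 reads. They were picked as the nearest of 5260 genes over only 4 libraries, so their closeness follows from that choice.

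Lamin A/C lines the inside of the nuclear envelope and was precipitated from the same 4 groups, with 188, 635, 831 and 536 peaks. A lamin A/C peak was assigned to 1 of the 10 genes in 1 library, Egr1 in Des+/+ swim, with a height of 8 reads over an input of 2 reads and a width of 213 bp. The other 3 lists held 0 of the 10 genes. The lowest height in each lamin A/C list was 8 reads, so this peak sat at the minimum.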

How the data were processed

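The authors aligned single-end reads to GRCm38 (mm10) and deposited 1 peak list per precipitated library. Bowtie2 2.4.4, SAMtools 1.13 and ChIPseeker 1.36.0 are named in the submitters' processing notes. Peaks were called per library against its input with laboratory scripts, and read extension, duplicate removal and input scaling are not given in the sources used here. The deposited height and input height are coverage signal in overlapping reads, unscaled for depth as far as stated. Peak width and distance to the nearest start are in bp. The authors' fold, p and false discovery columns were not used as results. In all 4 lists the fold column equalled height plus 1 over input height plus 1 for 100% of peaks. The 16 samples hold 8 input samples, which enter only through the input heights.

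Of the 10 genes, the highest promoter peak (within 3 kb of a start) was taken in each library. Ratios have exact conditional Poisson (Clopper-Pearson) 95% intervals, and ratios of ratios have log-normal ones, which cover counting error only. Reads without molecular identifiers are not independent molecules. With 1 library per group no test was made, and a gene is counted when 1.5-fold from the median. The members, gene lists and motifs were chosen with earlier results of these data known. Named genes were all 10 members, list genes past 1.5-fold after swimming (at most 6 a list) and the 5 nearest profiles. Fosl2, Atf4, Dusp1, Zfp36 and Creb1, and the distal regions, gaps and ratios of ratios, were picked after values were seen. Alternatives changed the peak taken, promoter distance, input, minimum height, reference median and peak pairing. The ratio code was tested on simulated heights. Python 3.11.15, pandas 2.3.3, numpy 2.4.6, SciPy 1.17.1 and matplotlib 3.10.9 were used. Promoter and genome sequence came from RefSeq, GRCm38.p6.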

Additional observations from a re-analysis of the deposited data

Results flagged for a closer look

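The swim ratio of Atf3 in Des-/- over that in Des+/+, relative to the median gene, was 0.421, from highest promoter peaks of 36 and 38 reads in Des+/+ and 63 and 29 in Des-/-. The 29 belongs to the peak upstream of the start and the other 3 values to the one downstream, which had 28 reads in Des-/- swim. For Fosb the same value was 0.559. With all promoter peaks summed, the relative swim ratios of Fosb were 1.06 in Des+/+ and 1.01 in Des-/-. Atf3 and Fosb were singled out because the counting interval of the difference excluded the median gene. With 1 library per group the difference was not tested against variation between mice.

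The Fos region 17.4 kb upstream was singled out by its counting interval too, with a value of 1.89. Unlike the promoter values, this one was not divided by its own median. That median was 1.03 over the 1119 distal regions with a peak in all 4 libraries. The Fos region went the other way from Atf3 and Fosb. All 4 libraries enter each of these 3 values, and the mean input height of Des-/- swim, 5.48 reads, was above that of the others. At the peaks themselves its input was 10 reads for Fosb, against 4 to 7 in the others. It was 4 reads for Atf3, against 3 to 5, and 4 reads for the Fos region, against 2 to 4. In the Fos region the low library was Des+/+ swim.

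The Egr1 lamin A/C peak in Des+/+ swim, with a height of 8 reads against 2 in the input, was singled out as a signal outside the H3K27Ac measurement. Its interval was not compared with a replicate, since there was none.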

How the results depend on the processing

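Depth is known only through the heights and an approximate read number for all samples, and no library could be left out, since each group had 1. All 10 genes kept a promoter peak in every library within 1 kb of a start, and 9 to 10 did at a minimum height of 30 reads, which Atf3 missed in Des-/- swim. The members' median relative ratio ranged over the 11 alternatives from 0.91 to 1.15 for swim in Des+/+, from 0.713 to 1.16 for swim in Des-/-, from 0.857 to 1.04 for genotype in basal and from 0.821 to 1.02 for genotype in swim. Of 438 values for single genes, 405 stayed within their counting interval, and 49 crossed the median gene, 1 of them for a gene past 1.5-fold (Fosb).

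With all promoter peaks summed, which counts both parts of a split promoter, the swim median was 1.15 in Des+/+ and 1.16 in Des-/-. In Des+/+ 3 genes lay above (Junb, Atf3, Nr4a1, 9.73% of all genes), in Des-/- 4 above (Jun, Junb, Nr4a1, Ier2, 9.45% of all genes) and 0 below (10% of all genes), where Fosb turned to 1.01. For genotype, 0 lay above and 1 (Ier2) below in basal, against 7.62% and 8.53% of all genes, and 2 (Fosb, Atf3) below in swim, against 10.4%.

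With width times height, the swim median was 1.12 in Des+/+, with 1 above (Atf3) and 1 below (Jun), against 16.1% and 18.4% of all genes. It was 0.713 in Des-/-, with 5 below (Fosb, Jun, Junb, Egr1, Nr4a1), against 18.3%. For genotype in basal 3 lay above (Fosb, Atf3, Ier2) and 1 below (Jund), against 14.6% and 14.9%, and in swim the median was 0.821 with 2 below (Fosb, Egr1), against 16.9%.

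With height plus 1 over input plus 1, 3 lay above in Des+/+ (Fosb, Atf3, Klf6, 18.2% of all genes). In Des-/- 2 lay above (Fos, Junb, 20% of all genes) and 2 below (Fosb, Nr4a1, 17.8%), Atf3 no longer being among them. The basal genotype median was 0.857, with 1 above (Atf3, 16.8%) and 1 below (Fos, 15.5%), and 3 lay below for genotype in swim (Fosb, Egr1, Klf6, 16.8%). The cause was not tested.

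With input subtracted, 1 gene lay above in Des+/+ (Atf3, 1.61) and 1 below in Des-/- (Fosb), against 5.97% and 7.02% of all genes. The highest peak at any distance left 1 below in Des-/- (Atf3) and 0 for genotype in swim. A minimum of 30 reads left 1 below in Des-/- (Fosb), and a reference of genes with at least 30 reads gave 1 above in Des+/+ and 1 below in Des-/- (Atf3 in both). Pairing overlapping peaks gave 2 below for genotype in swim (Fosb, Atf3), whether by 1 bp or by 0.5 of the shorter peak. The promoter distance and the reference over all peak pairs changed none of these counts or medians beyond the limits used.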
